A study of Mus musculus with 10 samples.

Results

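Mouse embryonic stem cells of one strain label (C57BL6X129S6F1) were sequenced as RNA after culture in 5 conditions, with 2 libraries per condition, and 4 of the 10 libraries are compared here. They are the libraries labelled 2iL (numbers 3 and 5) and the libraries labelled 2iL-F (numbers 3 and 5), chosen by their labels alone. Both labels name the same medium: N2B27, a serum-free basal medium, with 1000 IU of mouse LIF, 3 µM Chir99021, which blocks the kinase GSK3, and 1 µM PD0325901, which blocks the kinase MEK. The labels differ in the layer under the cells. 2iL is labelled as grown with feeder cells and 2iL-F as grown without them. The other 6 libraries, used for reference, are labelled as grown with feeder. SL is KO-DMEM with 15% fetal bovine serum and LIF, A2iL is N2B27 with LIF, 3 µM Chir99021 and 1.5 µM CGP77675, a Src family kinase inhibitor, and LCDM is N2B27 with LIF, 3 µM Chir99021, 2 µM Dim and 2 µM Mih. All conditions received LIF. The labels do not say which feeder cells were used, how they were treated or whether they were removed before lysis. They also do not say whether the libraries of a label are separate cultures, and p-values below therefore measure the spread between these libraries only.

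As background, a pair of inhibitors against MEK and GSK3 holds mouse embryonic stem cells in the naive state: blocking MEK quiets the FGF-ERK pathway that pushes the cells towards differentiation, and blocking GSK3 releases the Wnt effector beta-catenin. LIF acts through gp130 and STAT3 on the same network. Feeder layers are commonly growth-arrested embryonic fibroblasts, which secrete LIF and other factors and lay down a collagen and fibronectin matrix, and their RNA is co-extracted unless they are removed first.

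The fibroblast transcripts ran against the feeder labels. Of 13 defining fibroblast markers that could be read, 13 were at 1 TPM (a read count scaled for transcript length and for the library's total) or more in both 2iL-F libraries and 4 in both 2iL libraries, where Dcn, Lox and Postn were listed at 0. The summed level of the 13 was 3770 and 3611 TPM in 2iL-F and 831 and 875 TPM in 2iL. Pairs of values are for libraries 3 and 5, in that order, throughout. Most of the 2iL sum came from Sparc, at 436 and 446 TPM, and Fn1, at 386 and 420 TPM. The sum was 2070 and 2176 TPM in SL, 2025 and 1973 in A2iL and 748 and 741 in LCDM. The stem cell label held in both groups: 6 of 6 readable stem cell markers were at 1 TPM or more in all 4 libraries, with sums of 2828 and 3007 TPM in 2iL and 3049 and 2982 TPM in 2iL-F. Of 5 macrophage markers, Adgre1 and Ptprc were listed at 0 in both 2iL libraries. The sums were 41.9 and 41.6 TPM in 2iL and 29.8 and 27.1 TPM in 2iL-F. Most of each sum was Cd68, at 37.5 and 37 TPM in 2iL and 23.9 and 22 in 2iL-F. Adgre1, at 0.496 and 0.592 TPM in 2iL-F, and Tyrobp ran the other way at low levels. So did the sum of a longer macrophage list with 9 tested genes, 98.7 and 96 TPM in 2iL and 116 and 108 in 2iL-F. All directions below are given by label. In these bulk libraries fewer cells of a type and less RNA per cell cannot be told apart. The part of the fibroblast transcripts in each difference was not tested.

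Differences between the labels were broad. Of 14578 rows tested, 4262 (29.2%) were higher and 4733 (32.5%) lower in 2iL-F at a Benjamini-Hochberg adjusted p under 0.05 in limma, together 61.7%. Both 2iL-F libraries lay above both 2iL libraries in 37.3% of rows and below them in 40.8%. By at least 1 on the log2(TPM + 1) scale, 1231 (8.44%) were higher and 682 (4.68%) lower. Among differences of at least 3 on that scale, 185 rows were higher and 5 lower. Libraries of 1 label were close: the median absolute log2 difference was 0.125 between the 2iL libraries, 0.0734 between the 2iL-F libraries and 0.348 between the means of the labels. The median difference over all tested rows was -0.02. "Higher" and "lower" below mean past that adjusted p. Changes are 2iL-F minus 2iL on the log2(TPM + 1) scale ± SE, with 2 libraries each. The SE rests on a spread estimated over all 10 libraries, not on these 4 alone. In limma that spread is also drawn toward that of rows at similar levels. This scale understates the change of genes with low TPM. A row under 1 TPM in both 2iL libraries entered the test through other libraries and could hardly be called lower. Counts in each gene list stand beside the shares over all rows, 29.2% higher and 32.5% lower.

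Collagen genes were among the largest increases of the nameable rows; the 6616 tested rows in the lower part of the table, where symbols and values do not line up, are not ranked here. Col1a1, the alpha 1 chain of type I collagen (chr11:94936224-94953042, plus strand, GRCm38), stood at 1058 and 974 TPM in 2iL-F against 0.2004 and 0.264 in 2iL, a change of 9.69 ± 0.06 (adjusted p = 2.29e-12). Its partner chain Col1a2 (chr6:4504814-4541544, plus strand) had 252 and 245 TPM in 2iL-F against 0.00706 and 0.00663 in 2iL, and Col3a1, type III collagen, 361 and 356 TPM in 2iL-F against 0.0268 and 0 in 2iL. The 2iL libraries were near 0 for all of these and the 2iL-F libraries were above all other 8 libraries in the series. In 13 of 24 collagen and collagen-processing genes 2iL-F was highest in this way, as it was in 7.39% of all rows. SL, A2iL and LCDM lay between, with Col1a1 at 366 and 393 in SL, 407 and 381 in A2iL and 108 and 105 in LCDM. Lox, lysyl oxidase, which cross-links collagen, was listed at 0 in both 2iL libraries and had 239 and 239.8 TPM in 2iL-F. Postn, the matricellular protein periostin, was likewise at 0 in 2iL with 69.04 and 73.2 TPM in 2iL-F, and Dcn, the proteoglycan decorin, at 0 with 32.9 and 34.3. Of the 24 genes, 21 were higher and 1 lower, with a median change of 2.33. As an alternative, rows that followed the fibroblast markers across the 6 SL, A2iL and LCDM libraries (r above 0.9) were left out and the rest rescaled; 12 of the 24 genes then remained, with 10 higher, 1 lower and a median of 0.81. The exception was Colgalt1, which glycosylates collagen in the endoplasmic reticulum, with 132 and 124 TPM in 2iL-F against 258 and 265 in 2iL (-1.03 ± 0.05).

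Across a longer list of 48 tested fibroblast markers, 47 were higher and none lower, with a median of 4.12. The remaining marker, Pcolce2, did not pass. It is named because it was the exception, after its values were seen. Leaving out the rows that follow the fibroblast markers kept 19 of the 48, with 18 higher, 0 lower and a median of 3.92. Many fibroblast markers thus stay in that alternative, and its values do not measure the part of the fibroblast transcripts in any list. The summed level of the list was 1236 and 1285 TPM in 2iL and 6206 and 5971 in 2iL-F, beside 6418 and 6643 in SL, 4649 and 4560 in A2iL and 1715 and 1710 in LCDM. The list was not empty in 2iL: 18 of the 48 were at 1 TPM or more in both 2iL libraries, while 29 were under 1 TPM in both, 8 of them at 0. Sparc, a matrix protein that stem cells and endoderm also make, had 985 and 948 TPM in 2iL-F against 436 and 446 in 2iL (1.13 ± 0.04), and Fn1, fibronectin, 641 and 611 TPM in 2iL-F against 386 and 420.1 in 2iL (0.63 ± 0.05). Thy1, a fibroblast surface protein, had 70.9 and 68.4 TPM in 2iL-F against 0.293 and 0.413 in 2iL (5.71 ± 0.06). Sparc and Fn1 thus differed by far less than the collagens.

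**Figure D1:**
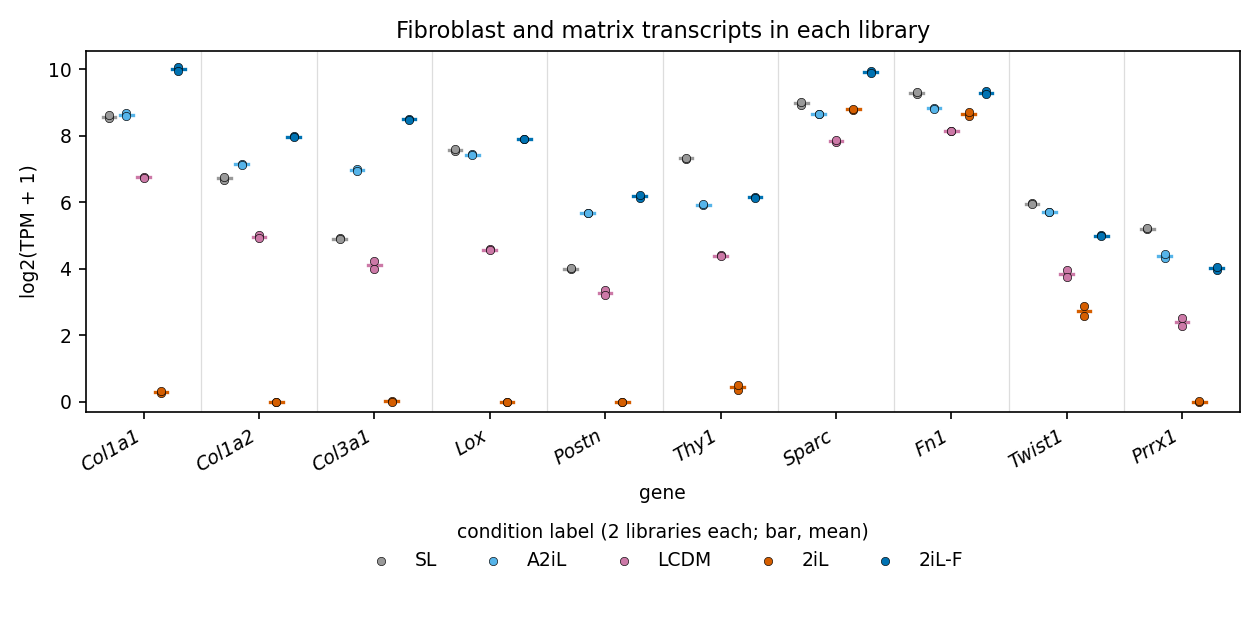
Levels of 10 fibroblast and matrix genes as log2(TPM + 1) in each of the 10 libraries, 2 points per condition label with a bar at their mean. The 2iL points lie at or near 0 for Col1a1, Col1a2, Col3a1, Lox, Postn and Prrx1, while Sparc and Fn1 are high in every condition.

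Transcription factors of mesenchyme followed the matrix. Of 29 tested, 22 were higher and 2 lower, with a median of 1.05. Without the rows that follow the fibroblast markers 8 remained, with 3 higher, 2 lower and a median of 0.18. Twist1, a regulator of mesenchymal identity, had 31.1 and 30.5 TPM in 2iL-F against 6.41 and 5.01 in 2iL (2.25 ± 0.10). Prrx1, a homeobox factor of limb and connective tissue mesenchyme, had 14.7 and 15.5 TPM in 2iL-F against 0 and 0.0149 in 2iL, and Snai2, which represses epithelial genes, 5.97 and 6.74 TPM in 2iL-F against 0.130 and 0.245 in 2iL (2.63 ± 0.17). For these 3 factors 2iL-F stayed within the range of the other conditions, and 2iL lay below all of them.

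Basement membrane, contractile and protease genes were mixed. Of 17 basement membrane genes, 11 were higher and 4 lower (median 0.82), and 5 of 9 higher and 2 lower (median 0.17) without the rows that follow the fibroblast markers. Col4a1, a chain of type IV collagen, had 29.6 and 27.4 TPM in 2iL-F against 2.28 and 2.35 in 2iL (3.15 ± 0.07), whereas Lama1, the laminin alpha 1 chain of the early embryo, had 26.1 and 25.6 TPM in 2iL-F against 41.1 and 44.6 in 2iL (-0.71 ± 0.07). Lama1 was higher in 2iL than in any other library. Of 21 contractile and actin genes 12 were higher and 5 lower (median 0.29), the lower count being 3 without 2iL replicate 5, without 2iL-F replicate 5 or without the rows that follow the fibroblast markers. Acta2, smooth muscle actin, was listed at 0 in 2iL and had 36.8 and 39.3 TPM in 2iL-F, far below the 875 and 907 TPM of SL. Cnn2, calponin 2, had 38.5 and 33.9 TPM in 2iL-F against 90.4 and 89.1 in 2iL (-1.29 ± 0.06), lower in 2iL-F than in any other library. Among 19 matrix proteases and inhibitors 13 were higher and 2 lower (median 1.64), or 7 and 2 of 12 (median 0.74) without the rows that follow the fibroblast markers. The list was led by Timp2, an inhibitor of metalloproteinases, with 129 and 125 TPM in 2iL-F against 0.878 and 0.888 in 2iL (6.09 ± 0.04).

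Secreted signals of inflammation were scarcely detected in 2iL. Of 23 chemokines and cytokines tested, 13 were at 0 in both 2iL libraries, 14 were higher in 2iL-F and none lower, with a median of 0.57. In 2iL, 20 of the 23 were under 1 TPM in both libraries and 2 at 1 TPM or more in both. The 20 entered the test through other libraries, so they could hardly be called lower. Without the rows that follow the fibroblast markers 8 of 11 were higher. Ccl2, which attracts monocytes, was listed at 0 in 2iL and had 119 and 118 TPM in 2iL-F. It reached 581 and 616 in A2iL and 265 and 262 in SL. Cxcl1, which attracts neutrophils, was also at 0 in 2iL and had 70.2 and 76.8 TPM in 2iL-F. Csf1, the growth factor of macrophages, had 16.8 and 16.3 TPM in 2iL-F against 0.149 and 0.156 in 2iL (3.93 ± 0.05), and Il6, a cytokine that signals through gp130, 5.89 and 6.73 TPM in 2iL-F against 0.0361 and 0 in 2iL (2.84 ± 0.13). Of 18 acute phase genes and targets of NF-kB, 14 were higher and 2 lower (median 0.87). The lower pair were Nfkb2, an NF-kB subunit, with 19.7 and 18.98 TPM in 2iL-F against 31.1 and 24.7 in 2iL (-0.50 ± 0.09), and Tnip1, an inhibitor of the pathway, with 61.1 and 58.6 TPM in 2iL-F against 68.5 and 71.4 in 2iL (-0.22 ± 0.06). The call of Tnip1 was lost without 2iL-F replicate 5, and 13 genes, 10 higher and 0 lower, remained without the rows that follow the fibroblast markers. Nfkbia, the inhibitor that NF-kB induces against itself, had 141 and 132 TPM in 2iL-F against 28.4 and 35.3 in 2iL (2.08 ± 0.09).

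Most interferon-response genes were also lower in 2iL than in 2iL-F. The summed level of the tested genes was 855 and 959 TPM in 2iL and 1728 and 1690 in 2iL-F. It was 1352 and 1298 TPM in SL, 1687 and 1624 in A2iL and 549 and 573 in LCDM, so 2iL was not the lowest condition by sum. Of 33 tested, 29 were higher in 2iL-F and 2 lower, with a median of 1.30. In 2iL, 22 of the 33 were under 1 TPM in both libraries and 10 at 1 TPM or more in both. The 22 entered the test through other libraries, so they could hardly be called lower. When the rows that follow the fibroblast markers were left out, 9 of the 33 remained, with 6 higher, 1 lower and a median of 0.83. Isg15, a ubiquitin-like protein induced by interferon, had 33.9 and 30.8 TPM in 2iL-F against 0.116 and 0.109 in 2iL (4.91 ± 0.10). Ifit1, which binds viral RNA, had 5.89 and 6.15 TPM in 2iL-F against 0.0660 and 0 in 2iL (2.76 ± 0.09), and Irf7, a factor that amplifies the interferon response, 8.69 and 8.302 TPM in 2iL-F against 0.395 and 0.262 in 2iL (2.84 ± 0.08). LCDM, a different medium with a fibroblast sum below those of SL, A2iL and 2iL-F, had 2.57 and 1.98 TPM of Isg15. A link of Isg15 to that sum was not tested. The 2 lower members were Irf1, with 12.99 and 14.2 TPM in 2iL-F against 16.5 and 17.3 in 2iL, and the immunoproteasome subunit Psmb10, with 16.3 and 16.6 TPM in 2iL-F against 21.2 and 20.05 in 2iL. Both of these calls were lost under some alternatives, each when 1 library was left out: Irf1 without 2iL-F replicate 3, and Psmb10 without 2iL replicate 3 or without 2iL-F replicate 3.

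The promoters of some of these genes hold the short sequences that the factors of each pathway bind, and 5 windows from genes higher in 2iL-F are shown. Sequences are from RefSeq promoter windows on GRCm38.p6, read 5′ to 3′ on the gene's strand over up to 250 bases before the start site, with the match in capitals. The interferon-stimulated response element was searched as GAAA, any 2 bases and GAAA again, on both strands. It was found in 7 of 22 interferon-response genes with a window (31.8%), against 3.46% of the 27025 genes in the table. The NF-kB element was searched by its usual degenerate form on both strands. It was found in 6 of 16 chemokine and cytokine genes (37.5%) and in 6 of 13 acute phase genes and NF-kB targets (46.2%), against 4.46% of all genes. Of genes with a window that were higher in 2iL-F, 6 of 18 interferon-response, 5 of 9 chemokine and cytokine and 4 of 11 acute phase genes held the match, and so did both lower genes of the last list, Nfkb2 and Tnip1. Overlapping matches in a window counted once per gene. The Isg15 window is chr4:156200863-156200908 (minus strand), the Ifit1 window chr19:34640767-34640812 (plus strand), the Cxcl1 window chr5:90891156-90891201 (plus strand), the Il6 window chr5:30013052-30013097 (plus strand) and the Nfkbia window chr12:55492649-55492694 (minus strand). A match is a description of the letters, not a measured binding site. The lists were drawn up from genes of these pathways, so their shares above all genes do not bear on the difference between the labels.
Isg15: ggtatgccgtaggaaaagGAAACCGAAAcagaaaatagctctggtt
Ifit1: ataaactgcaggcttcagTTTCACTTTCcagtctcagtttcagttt
Cxcl1: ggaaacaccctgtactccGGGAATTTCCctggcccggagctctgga
Il6: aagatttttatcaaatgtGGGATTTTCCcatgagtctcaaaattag
Nfkbia: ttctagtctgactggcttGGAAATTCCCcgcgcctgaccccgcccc

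Immediate early genes, the first transcripts induced by growth factor and stress signals, were mostly higher in 2iL-F. Both labels carry the MEK inhibitor. Of 21 tested, 17 were higher and 1 lower, with a median of 0.99 (11 higher and 1 lower of 13 without the rows that follow the fibroblast markers), and in 15 of the 21 both 2iL libraries lay below all other 8, as they did in 22.5% of all rows. Fos, a subunit of the transcription factor AP-1 (chr12:85473890-85477273, plus strand), had 159 and 162 TPM in 2iL-F against 3.32 and 3.47 in 2iL (5.20 ± 0.04, adjusted p = 5.31e-12). Its level was 159 and 162 in SL, 479.6 and 473 in A2iL and 256 and 251 in LCDM, so the 2iL libraries stood alone and the 2iL-F libraries lay at the level of SL. Fosb, a related subunit, had 43.96 and 39.3 TPM in 2iL-F against 0.126 and 0.132 in 2iL (5.24 ± 0.06), and Ier3, a stress-induced survival gene, 78.5 and 77.5 TPM in 2iL-F against 9.301 and 8.67 in 2iL (2.98 ± 0.06). Myc, the growth regulator, had 7.5 and 7.78 TPM in 2iL-F against 0.194 and 0.333 in 2iL (2.78 ± 0.07) and remained below SL at 67.2 and 70.1. LCDM, with a fibroblast sum of 1715 and 1710 TPM and without PD0325901, had Fos above 2iL-F. A link of Fos to the fibroblast sum or to the medium was not tested. The 1 lower gene was Arc, with 21.4 and 19.6 TPM in 2iL-F against 33.2 and 33.8 in 2iL (-0.68 ± 0.08).

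The feedback genes that ERK signalling switches on did not move as a block. Of 16 tested, 8 were higher and 5 lower, with a median of 0.23. The lower count was 3 without 2iL-F replicate 5 and 2 with only the 4 libraries compared, and 5 higher and 2 lower of 9 remained without the rows that follow the fibroblast markers. Spry4, a feedback inhibitor of receptor tyrosine kinases, was low under both labels, with 0.429 and 0.343 TPM in 2iL-F against 0.229 and 0.287 in 2iL and 25.6 and 28.4 in SL, 31.4 and 32.5 in A2iL and 17.8 and 16.9 in LCDM (0.14 ± 0.08, adjusted p = 0.143). The value for Spry4 turned negative under quantile normalisation and passed the test, as higher, with a pseudocount of 0.1. Dusp6, the phosphatase that removes the activating phosphates of ERK, had 6.59 and 6.22 TPM in 2iL-F against 2.49 and 2.63 in 2iL (1.06 ± 0.06), a difference past the test at levels far under the 35.2 and 35.1 TPM of LCDM. Spry4 and Dusp6 were thus low in all 4 libraries labelled with PD0325901. Dusp9, an X-linked ERK phosphatase, had 33.98 and 34.9 TPM in 2iL-F against 67.2 and 57.9 in 2iL (-0.84 ± 0.07), and Spry2 had 41.7 and 37.5 TPM in 2iL-F against 49.7 and 42.9 in 2iL (-0.22 ± 0.08), a call lost under 4 other settings and without 2iL replicate 3 or 2iL-F replicate 5.

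**Figure D2:**
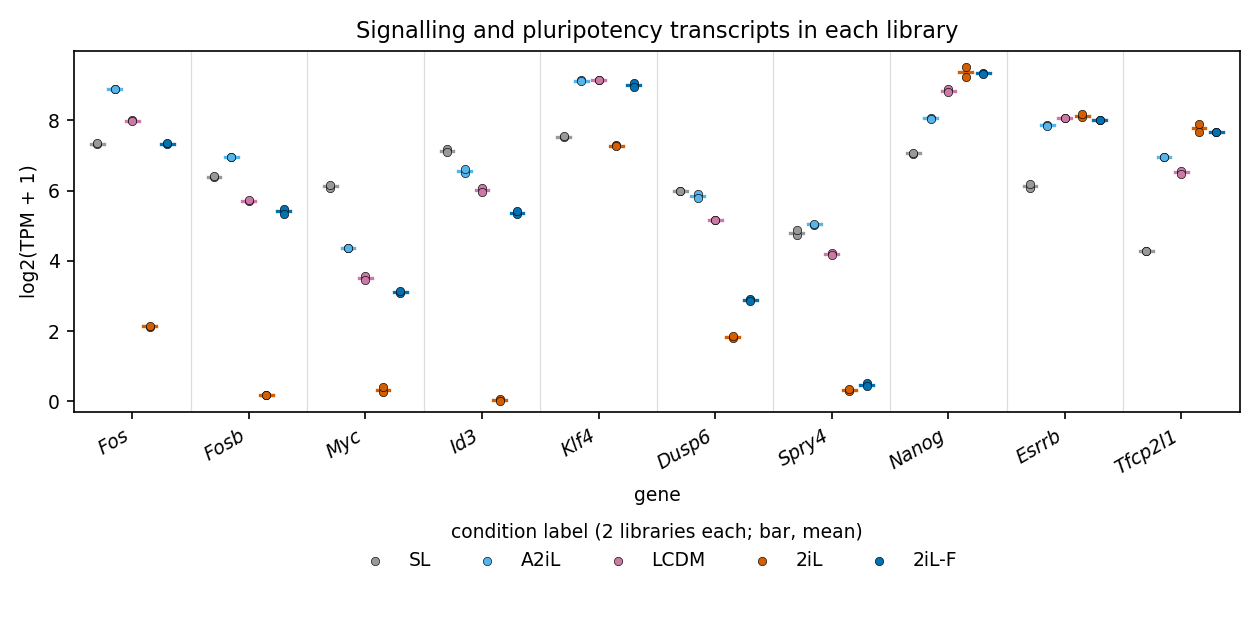
Levels of 10 signalling and pluripotency genes as log2(TPM + 1) in each of the 10 libraries, 2 points per condition label with a bar at their mean. The 2iL points are the lowest for Fos, Fosb, Myc, Id3 and Klf4, both 2i labels are low for Dusp6 and Spry4, and both are together for Nanog, Esrrb and Tfcp2l1.

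Genes of the TGF-beta and BMP pathways were also higher in 2iL-F on balance. Among 22 TGF-beta and activin genes 15 were higher and 3 lower (median 0.80). Without the rows that follow the fibroblast markers 7 of 14 were higher and 3 lower (median 0.24), and without 2iL replicate 3 the lower count was 6. By role, the ligand Tgfb3 had 10.3 and 10.6 TPM in 2iL-F against 0.0777 and 0.146 in 2iL (3.36 ± 0.07), the receptor Tgfbr2 35.3 and 31.9 TPM in 2iL-F against 1.84 and 1.48 in 2iL (3.70 ± 0.09) and the secreted modulator Fstl1 239 and 245 TPM in 2iL-F against 6.78 and 7.84 in 2iL (4.87 ± 0.07). The activin receptor Acvr1b went the other way, with 23.3 and 20.4 TPM in 2iL-F against 40.2 and 40.9 in 2iL (-0.87 ± 0.07). Among 18 BMP genes 11 were higher and 3 lower (median 0.39). Id3, a target of BMP signalling that blocks differentiation factors, had 39.2 and 41.6 TPM in 2iL-F against 0.0489 and 0 in 2iL (5.34 ± 0.07) and was at 144 and 135 in SL, 90.4 and 97.2 in A2iL and 66.3 and 61.01 in LCDM. The ligands split, with Bmp4 at 3.697 and 2.95 TPM in 2iL-F against 0.975 and 0.550 in 2iL (1.30 ± 0.14) and Bmp7 at 11.03 and 10.02 TPM in 2iL-F against 28.9 and 25.7 in 2iL (-1.29 ± 0.09). The inhibitory factor Smad7, which SMAD signalling induces, had 99.6 and 92.3 TPM in 2iL-F against 45.03 and 42.6 in 2iL (1.11 ± 0.05).

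The pluripotency network differed in single members rather than as a whole. Of 19 naive pluripotency genes 8 were higher and 7 lower, and the median of 0.04 changed sign with no filter on low values and without 2iL replicate 3. Nanog had 652 and 643 TPM in 2iL-F against 606 and 729 in 2iL (-0.04 ± 0.08, adjusted p = 0.691), Esrrb 259 and 256 TPM in 2iL-F against 274 and 288 in 2iL (-0.13 ± 0.05, adjusted p = 0.0614) and Tfcp2l1 202 and 203 TPM in 2iL-F against 201 and 239 in 2iL (-0.11 ± 0.07, adjusted p = 0.21). These 3 factors of the naive network did not pass the test; each became lower in 2iL-F past the threshold when 2iL replicate 3 was left out, the library with the lower value of the 2. Klf4, a naive factor downstream of LIF (chr4:55527143-55532466, minus strand), was the member that differed most, with 536 and 497 TPM in 2iL-F against 157 and 153 in 2iL (1.73 ± 0.05). Its level was 182 and 188 in SL, 563 and 553 in A2iL and 573 and 566 in LCDM, so 2iL was below every other condition. Tbx3, another naive factor, had 108 and 102 TPM in 2iL-F against 56.05 and 54.8 in 2iL (0.91 ± 0.06), above all other libraries. In the other direction Klf5 had 121 and 117 TPM in 2iL-F against 147 and 138 in 2iL (-0.26 ± 0.05) and Pecam1, an adhesion protein of the inner cell mass, 44.3 and 43.5 TPM in 2iL-F against 70.3 and 73.4 in 2iL (-0.70 ± 0.05).

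Core pluripotency genes, 12 tested, were higher in 5 cases and lower in 2, or lower in 4 without 2iL replicate 3. Pou5f1, which encodes Oct4, had 1173 and 1146 TPM in 2iL-F against 1367 and 1359.8 in 2iL (-0.23 ± 0.04), and Nr0b1 149.8 and 143 TPM in 2iL-F against 68.4 and 67.5 in 2iL (1.09 ± 0.04). In the LIF pathway 7 of 19 were higher and 7 lower (36.8% each), beside 29.2% and 32.5% over all rows. Lif itself had 5.999 and 7.57 TPM in 2iL-F against 5.905 and 6.21 in 2iL (0.13 ± 0.09, adjusted p = 0.239), both far below the 41.5 and 44.5 TPM of A2iL, and it passed as higher when 2iL-F replicate 3 was left out. The receptor subunit Il6st, gp130, had 31.8 and 32.2 TPM in 2iL-F against 12.6 and 13.4 in 2iL (1.24 ± 0.06), and Osmr, the oncostatin M receptor, 6.33 and 6.29 TPM in 2iL-F against 0.00724 and 0 in 2iL (2.87 ± 0.07). Socs2, a target of STAT signalling, was lower, with 9.86 and 9.92 TPM in 2iL-F against 16.5 and 17.6 in 2iL (-0.73 ± 0.07). Of 36 Wnt pathway genes 16 were higher and 5 lower (median 0.17), the lower count being 3 without 2iL replicate 5 or without 2iL-F replicate 5 and 2 without the rows that follow the fibroblast markers. Wnt5a, a ligand of mesenchyme, was at 0 in 2iL and 3.61 and 3.85 TPM in 2iL-F.

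Among genes of DNA methylation, 18 tested, 7 were higher (38.9%) and 6 lower (33.3%), beside 29.2% and 32.5% over all rows. Dnmt3b, a de novo methyltransferase that MEK inhibition lowers, had 20.99 and 22.4 TPM in 2iL-F against 7.73 and 8.82 in 2iL (1.29 ± 0.07), still far under the 214 and 217 TPM of SL. Dnmt3a had 3.45 and 3.52 TPM in 2iL-F against 3.08 and 3.16 in 2iL (0.12 ± 0.06, adjusted p = 0.0942). Dnmt1, the maintenance enzyme, had 120.1 and 118 TPM in 2iL-F against 143 and 152 in 2iL (-0.30 ± 0.05), and its partner Uhrf1 388 and 382 TPM in 2iL-F against 388 and 413 in 2iL (-0.06 ± 0.04, adjusted p = 0.301). Gadd45b, a stress-induced gene linked to demethylation, had 52.8 and 48.5 TPM in 2iL-F against 148 and 139 in 2iL (-1.48 ± 0.07). Among 17 imprinted genes 7 were higher (41.2%) and 6 lower (35.3%), beside the same shares over all rows. H19, an imprinted non-coding RNA abundant in embryonic mesenchyme (chr7:142575529-142578143, minus strand), had the second largest change of all nameable genes, with 672 and 666 TPM in 2iL-F against 0.143 and 0.1005 in 2iL (9.22 ± 0.05). H19 was also higher in 2iL-F than in any other library. Germline genes that DNA methylation silences were more often lower than higher: 9 of 17 against 1, median -0.42, beside 32.5% lower over all rows. Of the 17, 2 were lower by at least 1 and 7 did not pass. The median was -0.30 without 2iL replicate 5 and -0.50 without 2iL replicate 3. Ddx4, an RNA helicase of germ cells, had 2.402 and 2.96 TPM in 2iL-F against 6.46 and 6.53 in 2iL (-1.03 ± 0.10).

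In the epithelial genes 2iL-F was often the lowest condition. Of 17 epithelial junction genes 9 were lower in 2iL-F and 3 higher, with a median of -0.80. The median was -0.21 (7 lower and 4 higher of 15) without the rows that follow the fibroblast markers and -0.24 with no filter on low values, and 5 were higher without 2iL replicate 5. In 7 of the 17 both 2iL-F libraries lay below all other 8, as they did in 9.51% of all rows. Cldn7, a claudin of epithelial tight junctions (chr11:69964779-69967885, plus strand), had 4.404 and 4.44 TPM in 2iL-F against 65.8 and 68 in 2iL, the largest decrease of a nameable gene (-3.65 ± 0.05, adjusted p = 2.94e-10). It was at 30.6 and 32.3 in SL, 22.98 and 22.04 in A2iL and 40.98 and 38.6 in LCDM, so the 2 labels of 1 medium were the lowest and the highest of the series. Cldn6, a claudin of embryonic epithelium, had 2.55 and 3.94 TPM in 2iL-F against 38.5 and 43.05 in 2iL (-3.32 ± 0.13) and was at 100.1 and 104 in SL, 39.7 and 40.9 in A2iL and 41.96 and 42.8 in LCDM. Lsr, which organises tricellular junctions, had 10.3 and 11.5 TPM in 2iL-F against 49 and 49.4 in 2iL (-2.08 ± 0.06), and Krt18, a keratin of simple epithelia, 4.66 and 3.71 TPM in 2iL-F against 21.5 and 18.2 in 2iL (-2.01 ± 0.10). Cdh1, E-cadherin, was less affected, with 349.9 and 344 TPM in 2iL-F against 615 and 645 in 2iL (-0.86 ± 0.05), and 2iL-F remained above SL at 229 and 242. Jup, plakoglobin, was higher, with 87.8 and 81.04 TPM in 2iL-F against 61.2 and 58.5 in 2iL (0.49 ± 0.06).

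Other genes were low in 2iL-F alone while 2iL lay within the range of SL, A2iL and LCDM. Mapk13, a p38 kinase of epithelia, had 5.73 and 5.602 TPM in 2iL-F against 33.3 and 33.5 in 2iL (-2.37 ± 0.09), with 22.2 and 26.6 in SL, 27.3 and 31.2 in A2iL and 36.6 and 35.9 in LCDM. Ap1m2, the sorting adaptor subunit of epithelial cells, had 2.903 and 3.004 TPM in 2iL-F against 11.8 and 13.1 in 2iL (-1.76 ± 0.09), and Tmem30b 1.49 and 1.49 TPM in 2iL-F against 8.38 and 8.45 in 2iL (-1.92 ± 0.08). High in 2iL-F alone were Clec3b, tetranectin, with 6.13 and 4.75 TPM against a listed 0 in 2iL, and Rac2, a small GTPase, with 7.52 and 7.35 TPM in 2iL-F against 0.565 and 0.504 in 2iL (2.46 ± 0.18).

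**Figure D3:**
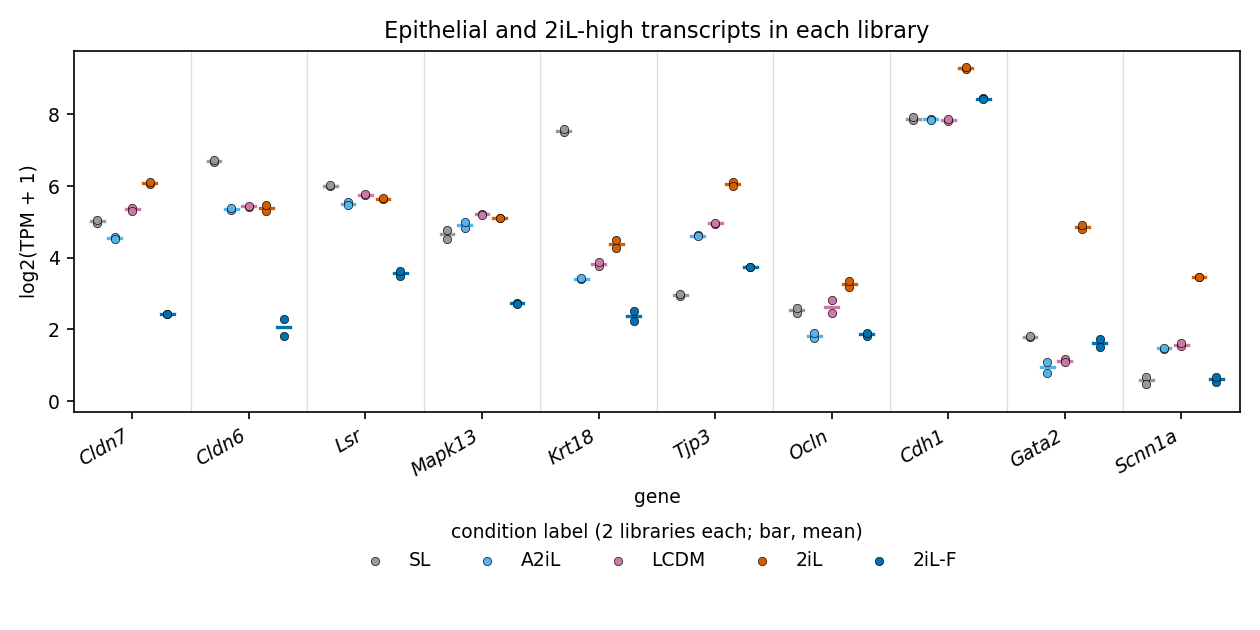
Levels of 10 genes as log2(TPM + 1) in each of the 10 libraries, 2 points per condition label with a bar at their mean. The 2iL-F points are the lowest for Cldn7, Cldn6, Lsr, Mapk13 and Krt18, and the 2iL points are the highest for Tjp3, Cdh1, Gata2 and Scnn1a.

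A further set was high in 2iL alone. Gata2, a transcription factor of trophoblast and blood progenitors (chr6:88193891-88207032, plus strand), had 2.33 and 1.88 TPM in 2iL-F against 27.1 and 29.3 in 2iL (-3.24 ± 0.12), beside 2.45 and 2.53 in SL, 1.14 and 0.728 in A2iL and 1.24 and 1.13 in LCDM. Scnn1a, a subunit of the epithelial sodium channel, had 0.454 and 0.592 TPM in 2iL-F against 9.93 and 9.97 in 2iL (-2.85 ± 0.10), and Tjp3, a scaffold of tight junctions, 12.4 and 12.5 TPM in 2iL-F against 68.003 and 62.9 in 2iL (-2.30 ± 0.06). Esx1, an X-linked homeobox gene of the placenta, had 5.94 and 5.32 TPM in 2iL-F against 31.3 and 22.7 in 2iL (-2.06 ± 0.15). Rhox6, another X-linked homeobox gene with close paralogs that short reads can confuse, had 6.902 and 6.74 TPM in 2iL-F against 44.9 and 44.7 in 2iL (-2.55 ± 0.07). Trophoblast genes as a list were lower in 2iL-F in 8 of 15 cases and higher in 2, with a median of -0.38. The 4 readable defining trophoblast markers were low and close under both labels, with sums of 2.58 and 2.66 TPM in 2iL-F against 2.37 and 2.58 in 2iL. Among them Cdx2 was listed at 0 in 2iL and had 0.593 and 0.772 TPM in 2iL-F. Ascl2 ran the other way, at 1.05 and 1.35 TPM in 2iL-F against 1.78 and 1.93 in 2iL. Values of Gata3 and Elf5 overlapped between the labels. Of 15 primitive endoderm genes 7 were higher and 4 lower, a balance that turned to 1 higher and 3 lower when rows following the fibroblast markers were left out. Gata4, an endoderm factor, was lower, with 2.404 and 2.51 TPM in 2iL-F against 9.903 and 8.44 in 2iL (-1.55 ± 0.14). Levels of the endoderm factor Sox17 went the same way, at 0.412 and 0.64 TPM in 2iL-F against 1.27 and 0.949 in 2iL. Those of Gata6 went the other way, at 2.85 and 2.49 TPM in 2iL-F against 0.961 and 1.03 in 2iL.

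The amino acid response, which the transcription factor ATF4 drives when amino acids are short or proteins misfold, had the largest share of genes lower in 2iL-F among the lists. Of 42 tested genes 33 were lower in 2iL-F and 6 higher, with a median of -0.47, and in 27 of the 42 both 2iL libraries lay above all other 8, as they did in 20.8% of all rows. The summed level was 7600 and 7484 TPM in 2iL and 4823 and 4726 in 2iL-F, beside 3026 and 3057 in SL, 4454 and 4451 in A2iL and 4671 and 4688 in LCDM. Thus 2iL-F lay just above the other N2B27 media, and 2iL far above them. Gpt2, mitochondrial alanine transaminase, had 59.9 and 59.5 TPM in 2iL-F against 181 and 188 in 2iL (-1.61 ± 0.07), and Mthfd2, a mitochondrial folate enzyme, 84.1 and 86.4 TPM in 2iL-F against 195 and 202 in 2iL (-1.21 ± 0.05). Nupr1, a stress-induced chromatin protein, had 46.5 and 47.3 TPM in 2iL-F against 128 and 126 in 2iL (-1.42 ± 0.06), and Ddit4, an inhibitor of the growth kinase mTORC1, 186 and 178 TPM in 2iL-F against 527 and 412 in 2iL (-1.35 ± 0.10). Fgf21, a hormone that ATF4 induces, had 0.282 and 0.0918 TPM in 2iL-F against 4.15 and 4.85 in 2iL (-2.21 ± 0.16). Asns, asparagine synthetase, the most abundant of those named, differed less, with 546 and 551 TPM in 2iL-F against 731 and 819 in 2iL (-0.49 ± 0.05). Against the list, the arginine transporter Slc7a3 had 61.2 and 59.5 TPM in 2iL-F against 19.9 and 25.3 in 2iL (1.39 ± 0.09).

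The element TGATGNAA, the core to which ATF4 binds beside a C/EBP partner, was searched on both strands of the same promoter windows. It was found in 12 of 32 genes of the list with a window (37.5%), against 3.91% of all genes, and in 10 of the 25 that were lower in 2iL-F. Slc7a11 and Vldlr, which were higher, also held it. The list was drawn up from genes of this response, so its share above all genes does not bear on the difference between the labels. The windows of 4 genes with a match that were lower in 2iL-F are shown: Fgf21 at chr7:45615604-45615647 (minus strand), Nupr1 at chr7:126625555-126625598 (minus strand), Chac1, which degrades glutathione, at chr2:119351031-119351074 (plus strand) and Asns at chr6:7693210-7693250 (minus strand). In Fgf21, Nupr1 and Chac1 the match reads on the opposite strand, so the capitals show its complement.
Fgf21: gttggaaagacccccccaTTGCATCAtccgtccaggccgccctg
Nupr1: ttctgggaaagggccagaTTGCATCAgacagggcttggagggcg
Chac1: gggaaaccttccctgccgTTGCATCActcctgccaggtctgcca
Asns: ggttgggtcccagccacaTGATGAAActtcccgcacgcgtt

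Chaperones of the endoplasmic reticulum and cytosol did not follow the amino acid response: of 30 tested, 17 were higher in 2iL-F and 5 lower (median 0.30), with 8 lower without 2iL replicate 3. Hspa5, the chaperone BiP, had 262 and 272 TPM in 2iL-F against 98.4 and 119 in 2iL (1.30 ± 0.08), and Hspa8, the constitutive heat shock cognate, 1004 and 1006 TPM in 2iL-F against 252 and 297 in 2iL (1.87 ± 0.07). For both genes 2iL was the lowest condition of the series, with Hspa8 at 1353 and 1411 in SL, 1001 and 986 in A2iL and 979 and 916 in LCDM.

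**Figure D4:**
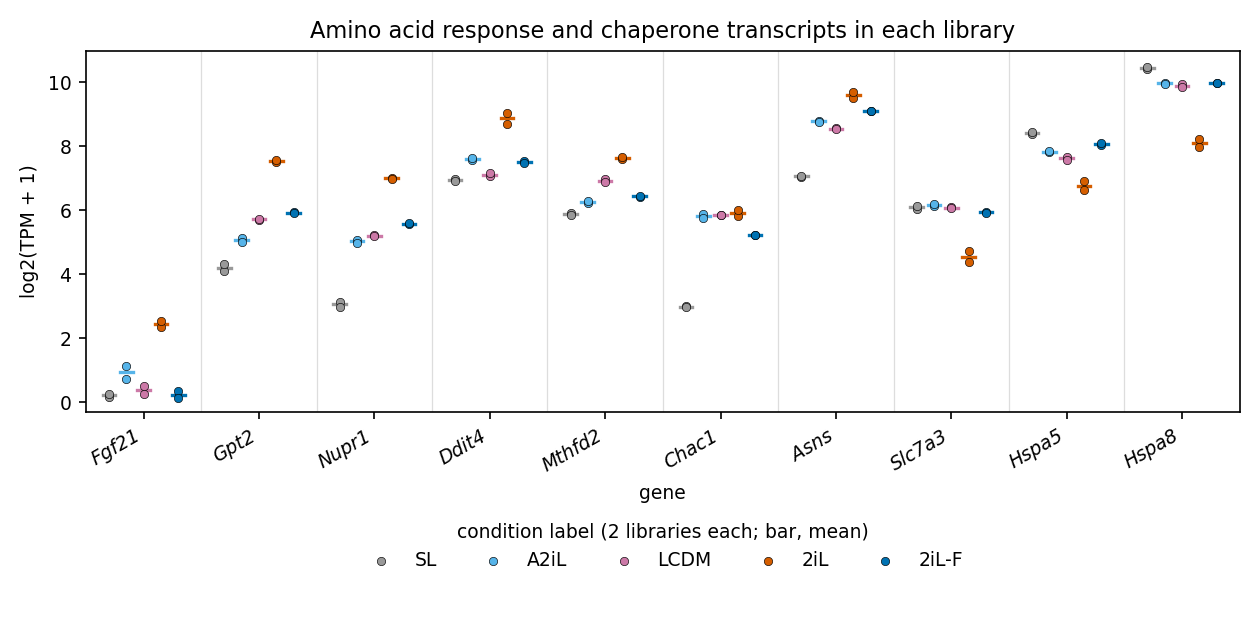
Levels of 8 amino acid response genes and 2 chaperone genes as log2(TPM + 1) in each of the 10 libraries, 2 points per condition label with a bar at their mean. The 2iL points are the highest for Fgf21, Gpt2, Nupr1, Ddit4, Mthfd2 and Asns and the lowest for Slc7a3, Hspa5 and Hspa8.

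The title of the series concerns genome stability, so genes of repair and the cell cycle were read next. Of 52 DNA repair genes 26 were lower in 2iL-F and 7 higher, with a median of -0.23; 11 were higher without 2iL replicate 5 and 4 without 2iL-F replicate 5. Ogg1, the glycosylase that removes oxidised guanine, had 18.02 and 18.3 TPM in 2iL-F against 33.8 and 36.5 in 2iL (-0.91 ± 0.06), and Xpc, which recognises bulky lesions, 8.801 and 8.33 TPM in 2iL-F against 18.7 and 19.8 in 2iL (-1.08 ± 0.06). Parp1, a sensor of strand breaks, had 209.8 and 212 TPM in 2iL-F against 258 and 266 in 2iL (-0.31 ± 0.04). Against them, Apex1, the nuclease that acts after Ogg1, had 365 and 355 TPM in 2iL-F against 227 and 222 in 2iL (0.68 ± 0.04). Of 46 mitosis and spindle genes 22 were lower and 5 higher (median -0.15). The lower count was 14 without 2iL-F replicate 3, and the median was -0.07 without 2iL replicate 5 and -0.26 without 2iL replicate 3. Lower genes included Aurkb, the kinase of the chromosomal passenger complex, with 57.2 and 54.8 TPM in 2iL-F against 86.1 and 84.7 in 2iL (-0.60 ± 0.04) and Ccnb2, a mitotic cyclin, with 169 and 165 TPM in 2iL-F against 255 and 258 in 2iL (-0.61 ± 0.04). Of 44 replication and checkpoint genes 17 were lower and 6 higher, a median of -0.06 that became 0.03 when rows following the fibroblast markers were left out. Without 2iL-F replicate 3 the lower count was 11, the higher count was 10 without 2iL replicate 5 and 3 without 2iL-F replicate 5, and the median was -0.14 without 2iL replicate 3 and -0.01 without 2iL replicate 5. These shares of lower genes stood beside 32.5% over all rows. Differences in the cell-cycle lists were small next to those of the matrix.

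Cyclins and inhibitors differed in both directions, 6 higher and 10 lower of 18 (median -0.21). Ccnd2, cyclin D2, had 19.5 and 20.1 TPM in 2iL-F against 0.0932 and 0.0350 in 2iL (4.29 ± 0.07), whereas Cdkn1b, the inhibitor p27, had 26.7 and 23.6 TPM in 2iL-F against 57.3 and 63.01 in 2iL (-1.23 ± 0.07). Among 24 targets of p53, 10 were higher and 10 lower. Cdkn1a, the inhibitor p21, had 582 and 583 TPM in 2iL-F against 465 and 401 in 2iL (0.43 ± 0.07), and Mdm2, which degrades p53, 68.3 and 73.6 TPM in 2iL-F against 43.7 and 53.6 in 2iL (0.54 ± 0.09). The death receptor Fas had 7.94 and 8.39 TPM in 2iL-F against 0.0487 and 0.137 in 2iL (3.07 ± 0.10), while Bbc3, the killer protein PUMA, had 60.5 and 53.5 TPM in 2iL-F against 136 and 121 in 2iL (-1.16 ± 0.09). Members of the p53 list thus went in opposite directions.

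Metabolic genes showed smaller differences. Of 17 glycolysis genes 10 were higher and 6 lower (median 0.22), or 6 and 4 of 13 (median 0.11) without the rows that follow the fibroblast markers. Pkm, pyruvate kinase, had 1481 and 1400.1 TPM in 2iL-F against 871 and 855 in 2iL (0.74 ± 0.04), and Slc16a3, the lactate exporter, 47.02 and 43.9 TPM in 2iL-F against 11.4 and 10.4 in 2iL (1.96 ± 0.06). Ldhb, a lactate dehydrogenase subunit, was lower, with 404 and 407 TPM in 2iL-F against 669 and 813 in 2iL (-0.86 ± 0.08). Of 24 cholesterol synthesis genes 11 were lower and 4 higher (median -0.12), but 8 were higher without 2iL replicate 5 (median -0.03) or under quantile normalisation, 7 without the rows that follow the fibroblast markers, and the median was -0.20 without 2iL replicate 3. Examples were Pmvk, phosphomevalonate kinase, at 55.8 and 53.3 TPM in 2iL-F against 119 and 127 in 2iL (-1.16 ± 0.08) and, against them, the fatty acid synthase Fasn at 167 and 158 TPM in 2iL-F against 76.4 and 73.97 in 2iL (1.10 ± 0.06). Of 56 nuclear subunits of oxidative phosphorylation 20 were lower and 4 higher (median -0.10, and -0.01 without the rows that follow the fibroblast markers). The lower share, 35.7%, was near the 32.5% over all rows, and the higher share was 7.14% beside 29.2%. Some very abundant transcripts differed by under 0.1: Ybx1 had 1329.9 and 1299.7 TPM in 2iL-F against 1416 and 1231 in 2iL (-0.01 ± 0.07, adjusted p = 0.945) and Mif 1091 and 1062 TPM in 2iL-F against 1070.0 and 1074 in 2iL (0.01 ± 0.04, adjusted p = 0.912).

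**Figure D5:**
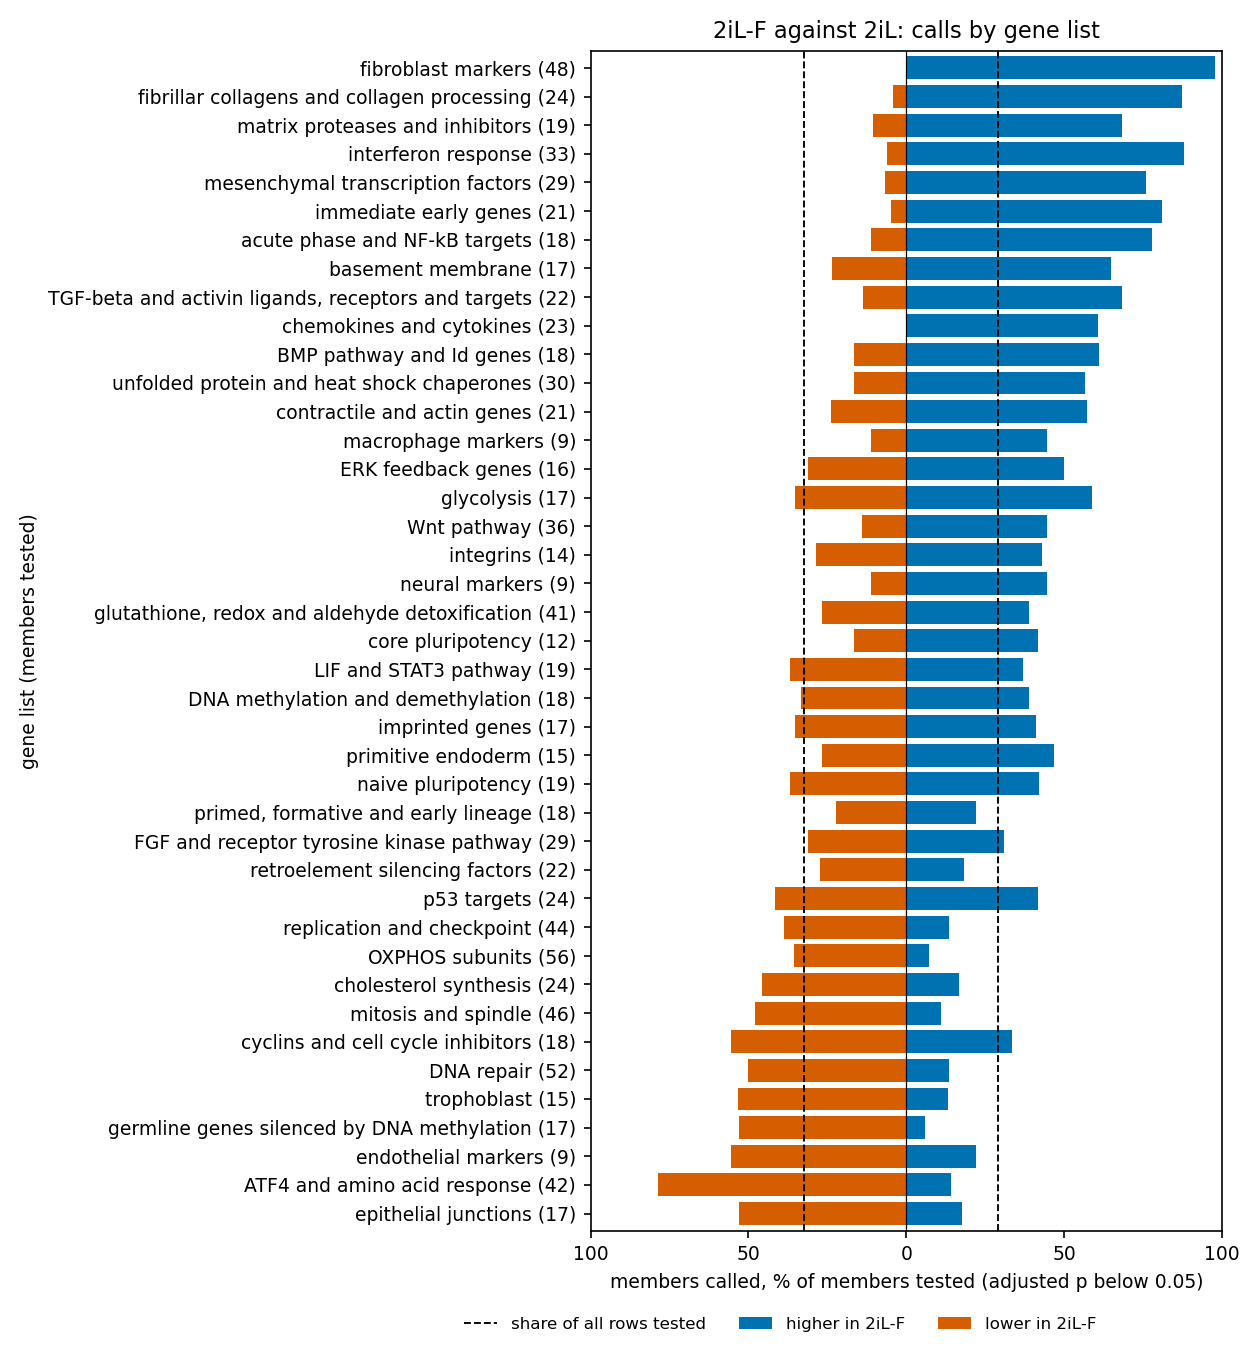
Share of tested members of each gene list called higher (to the right) or lower (to the left) in 2iL-F at an adjusted p under 0.05, with the number tested in brackets; dashed lines mark the shares over all rows, 29.2% higher and 32.5% lower. Fibroblast markers reach furthest to the right and the amino acid response furthest to the left, with lists ordered by their median change.

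With the other conditions as reference, the 2iL libraries were more often the pair out of range. Among the 1231 rows higher in 2iL-F by at least 1, both 2iL libraries lay outside the range of SL, A2iL and LCDM while 2iL-F lay within it in 735 (59.7%). The reverse held in 84 (6.82%), and both labels lay outside on opposite sides in 138 (11.2%). Among the 682 rows lower by at least 1 the counts were 276 (40.5%), 49 (7.19%) and 72 (10.6%). The remaining rows fell in none of these classes. Over all tested rows, both 2iL libraries lay below all other 8 in 22.5% and above them in 20.8%. For 2iL-F those shares were 9.51% and 7.39%. The 2iL pair thus stood apart more often over all rows too, not only in rows picked by their difference. SL, A2iL and LCDM are labelled with feeder, as is 2iL, so these positions, like the fibroblast sums, did not follow the feeder labels.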

How the data were processed

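RNA-seq of 10 mouse embryonic stem cell libraries was read from 1 deposited table of TPM values (read counts scaled for transcript length and library total), which the authors made with tools that the submitters' processing notes list as Bowtie2, RSEM, DESeq2 and R 3.4.2 with the mm10 build. Other versions: not given in the sources used here. TPM keeps no depth, and the library kit is not stated to mark strand, so overlapping genes cannot be told apart. Groups came from the labels. Rows at 1 TPM or more in at least 2 of the 10 libraries (14578 of 20494) were tested as log2(TPM + 1), pseudocount 1, with limma 3.58.1 (R 4.3.3) over all 5 conditions with a shared spread, for 2iL-F minus 2iL with Benjamini-Hochberg adjustment over all rows. The test was checked on simulated data. In the lower part of the table symbols and values do not line up (the row named Gapdh is at or near 0 in every library), so 6616 tested rows there were counted but never named. A gene list's count and median cover only its tested, nameable members.

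Named genes were the 15 largest changes in each direction at 5 TPM or more in the higher group, up to 6 leading and 2 opposing members per list, a fixed set, abundant genes with little change, and the 8 largest for which 1 label alone was out of range. Members and lists were chosen with earlier results of these data known. Promoter windows and motif matches used RefSeq sequences (GRCm38.p6), and gene coordinates GENCODE vM21. Alternatives covered the pseudocount, filters, scaling, the libraries in the fit, robust variance, a replicate block, the rows used and leaving out each library. Some results are not reported here.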

Additional observations from a re-analysis of the deposited data

How the results depend on the processing

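The counts of higher and lower rows, at any size and at a log2 change of 1 or more, stayed within 1.5 times of the reported values under the alternatives, with these exceptions. With a pseudocount of 0.1 the rows changed by at least 1 became 1873 higher and 1026 lower. With the upper rows of the table alone, 7962 rows were tested and the counts were 2441 higher and 2891 lower, of which 611 and 351 by at least 1; fewer rows were tested there. Without the 1760 rows that follow the fibroblast markers, 700 rows were higher by at least 1. Leaving out each of the 4 libraries in turn gave 3622 to 4519 higher and 3980 to 5004 lower rows, and 1173 to 1296 and 666 to 703 by at least 1; the label left with 1 library is then assumed to vary like the others. The share of calls that were higher was 47.4%, and 43.0 to 51.6% over the alternatives. Quantile normalisation moved the median of all rows to -0.07. The numbers 3 and 5 share a replicate number only: deviations of same-numbered libraries from their means correlated at 0.0746 between 2iL and 2iL-F, and at -0.131 to 0.0746 over all pairs of conditions. With them as a replicate block, 4200 rows were higher and 4658 lower, of which 1227 and 684 by at least 1.

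List medians also moved by over 1.5 times with the processing. A pseudocount of 0.1 gave 2.11 for chemokines, 2.15 for acute phase genes, 2.86 for interferon-response genes, 1.78 for immediate early genes, 1.72 for mesenchymal factors, 0.45 for ERK feedback and -0.60 for trophoblast genes. Quantile normalisation gave 0.09 for contractile genes, 0.26 for BMP genes, 0.34 for chemokines, 0.50 for acute phase genes, 0.08 for ERK feedback and -0.05 for OXPHOS subunits. No filter gave 0.36 for basement membrane genes, 0.36 for chemokines, -0.19 for trophoblast and -0.26 for germline genes. With only the 4 libraries compared, 13 mitosis, 13 OXPHOS and 11 replication genes were lower. Of 106 named genes that passed the test, 102 kept their call and direction under each alternative that could be fitted; the others were Irf1, Psmb10, Spry2 and Tnip1, which stayed lower but missed the threshold. Dnmt3a passed as higher with median-of-ratios scaling (0.14) and without the rows that follow the fibroblast markers (0.19). Under quantile normalisation the change of Spry4 was -0.39 on the log2 scale, against 0.14; the cause was not tested. Depth is unknown from TPM, so values near 0, such as those of the collagens in 2iL, have no interval, and a listed 0 does not show absence.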
